A study of Mus musculus with 22 samples.

Results

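Gene expression at lights on and at lights off was compared between mice on chow and mice on a steatohepatitis diet, and each gene was asked whether its difference between those times changed with the diet. The comparison rests on 11 of the 22 RNA-seq libraries of a study of mouse liver cells labelled HSC, an abbreviation in common use for hepatic stellate cells. They are all libraries labelled zeitgeber time 0 (ZT0, lights on, 7 am) or 12 (ZT12, lights off, 7 pm). All genes of the deposited read count table were eligible, and 22409 of 55367 passed the filter on low counts and were tested. The control groups received chow and held 3 libraries at ZT0 and 2 at ZT12. The diet groups received CDA-HFD, a high-fat diet that lacks choline and supplies protein as defined amino acids, and held 3 libraries at each time. The labels give an age of 20 weeks. Feeding is given as 12 weeks from 8 weeks of age in one field, which adds up to that age, and as 6 months in another, which is longer than it, so these fields cannot all hold. The sources used here do not give strain, sex or the way the cells were isolated. Whether every library is a separate animal is not stated, so the p-values below reflect variation among libraries that may be partly or wholly technical.

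The 11 libraries held between 20775403 and 41665623 counts. Expression is given as CPM, the counts of a gene scaled to a common library total, with library sizes adjusted by TMM (trimmed mean of M-values), and differences as log2 values with their standard errors. The first principal component of the 11 libraries carried 45.8% of the variance and separated the diets, but replicate 2 of control ZT0 sat at -55 on it, away from the other control libraries at -110 to -123. That library also had the lowest summed endothelial markers of the control (27881 CPM against 44583 to 50238 in the other 4) and the highest summed T and NK cell markers (2763 CPM against 675 to 1376). The 18 stellate markers summed to 203 to 441 CPM in control and 128 to 267 CPM under diet. Ecm1 made up much of the control sums, averaging 219 CPM at ZT0 and 300 CPM at ZT12, against 34.1 and 34.7 CPM under diet. Rgs5 went the other way, with 7.1 and 4.9 CPM in control and 36.7 and 81.7 CPM under diet. The lower sums under diet thus do not describe the list as a whole. Lrat and Des, defining genes of quiescent stellate cells, averaged at most 1.85 and 6.92 CPM in any of the 4 groups. The 20 endothelial markers summed to 27881 to 50238 CPM in control and 1834 to 2939 CPM under diet, so the libraries are called liver cells here and not stellate cells. Summed T and NK cell markers were higher under diet, at 4475 to 8641 CPM against 675 to 2763 CPM in control. B and plasma cell markers were also higher, at 2435 to 4763 CPM against 620 to 1255 CPM. Summed macrophage and dendritic cell markers were higher under diet too. Neutrophil markers overlapped, at 28.9 to 46.4 CPM under diet and 22.1 to 122 CPM in control. The part of these marker differences in the results below was not tested. In such bulk samples, fewer cells of a type and less RNA per cell cannot be told apart.

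As background, the mammalian clock is a feedback loop. CLOCK and BMAL1, the product of Arntl, bind E-box sequences and activate the Per and Cry genes, whose proteins return to repress them. A second loop runs through Nr1d1 and Nr1d2, which encode the REV-ERB repressors of Arntl. The same E-box drive reaches Dbp and Tef, transcription factors that carry timing to other genes through D-box sequences. In liver the clock contributes to the daily rhythm of sterol, bile acid and xenobiotic metabolism. Whether the sterol results below follow from the clock was not tested.

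Promoter sequence is shown for the called genes in which a script found one of these letter strings, so that the element named in the loop can be seen beside the values. A RefSeq promoter (GRCm38.p6) was matched for 17 of the 20 genes called below, and the 250 bases before each start were searched on both strands. The E-box was searched as CACGTG, which reads the same on both strands, and the D-box as TTATGTAA, which does not overlap it. The E-box was present for 3 of the 17, Ciart, Per1 and Tef, against 8.72% of the 14420 tested genes with a promoter. The D-box was present for 1 of the 17, Per3, against 0.791%. Matches begin 116, 58 and 44 bases before the start of Ciart (window chr3:95882255-95882356, minus strand) and 166 bases before an alternative RefSeq start of Per1 (chr11:69098771-69098800, plus strand). For Tef they begin 127 and 138 bases before a pair of alternative starts (chr15:81802534-81802563 and chr15:81811264-81811293, plus strand). The windows of Per1 and Tef lie inside the gene spans given below, downstream of their first base. For Per3 they begin 205 and 158 bases before the start (chr4:151044804-151044882, minus strand). The windows follow, 5′ to 3′ along the gene's strand, with the matched letters in capitals. A match is a description of the sequence and not evidence of binding.
Ciart: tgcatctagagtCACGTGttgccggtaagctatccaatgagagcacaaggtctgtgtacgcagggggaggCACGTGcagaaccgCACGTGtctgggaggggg
Per1: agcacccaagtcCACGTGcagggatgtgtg
Tef, first start: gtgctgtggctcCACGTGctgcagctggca
Tef, other start: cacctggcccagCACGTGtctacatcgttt
Per3: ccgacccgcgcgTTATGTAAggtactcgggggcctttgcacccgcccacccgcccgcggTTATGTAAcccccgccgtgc

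The ZT12 minus ZT0 difference differed between the diets for 20 genes, 0.0892% of those tested, and 10 of the 20 were clock or clock output genes. The interaction was negative for 13 genes (0.058%), which rose less or fell more from ZT0 to ZT12 under diet than in control, and positive for 7 (0.0312%). By name the negative genes were Nr1d2, Dbp, Nr1d1, Tef, Cry2, Uox, Ciart, Per3, Papss2, Per1, Wee1, Cyp11a1 and Sqstm1. Mpzl1, Srebf2, Lce6a, Efnb1, Arntl and Pafah1b3 were among the positive genes. In all 20 the fitted difference between the times was smaller in size under diet than in control, and in 10 of them it also had the opposite sign. Of the 20, 18 differed between ZT12 and ZT0 in control but not under diet by the same threshold, Dbp differed in both with the same sign, and Efnb1 passed in neither. A call is an adjusted p under 0.05 from the quasi-likelihood test of edgeR, adjusted by Benjamini-Hochberg over all 22409 genes, and 1982 genes (8.84%) had an unadjusted p under 0.05.

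The number of calls depended on the libraries used and on the scaling. The test used 1 model of all 22 libraries, in which the ZT6 and ZT18 libraries lend their spread to the comparison. Filtered, scaled and fitted on the 11 libraries alone, with 20159 genes tested, it called 5 genes, of which Nr1d2, Dbp, Mpzl1 and Tef are among the 20. Those 4 were called under every alternative run, and all 20 genes kept their sign under each alternative that tested them. Without replicate 2 of control ZT0, the library that stands apart, 86 genes were called, with all 20 among them. Without replicate 1 of control ZT12 the count was 41, with 15 of the 20, and without replicate 2 of control ZT12 it was 16, with 11 of the 20. Without replicate 2 of diet ZT12 it was 13, all from the 20. With scaling to library size only, the split was 19 positive and 12 negative calls instead of 7 and 13, and the median interaction of all genes moved from 0.10 to 0.20 on the log2 scale.

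With each of the 11 libraries left out in turn, 8 genes were called every time: Nr1d2, Dbp, Mpzl1, Nr1d1, Srebf2, Tef, Cry2 and Ciart. The other 12 lost the call without at least 1 library. Efnb1, Uox and Lce6a lost it without replicate 2 of control ZT12, and Arntl without either library of control ZT12. Per3 lost it without replicate 1 of control ZT12 or replicate 2 of diet ZT12. Papss2 lost it without replicate 1 of control ZT12, replicate 1 or 2 of diet ZT0, or replicate 2 of diet ZT12. Per1 lost it without replicate 2 of control ZT12, replicate 1 or 2 of diet ZT0, or replicate 2 or 3 of diet ZT12. Wee1, Pafah1b3 and Sqstm1 were called in 3 of the 11 fits and Cyp11a1 in 2, so that most libraries of the comparison decide these 4 calls. Each of the 4 was called without replicate 2 of control ZT0.

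**Figure D1:**
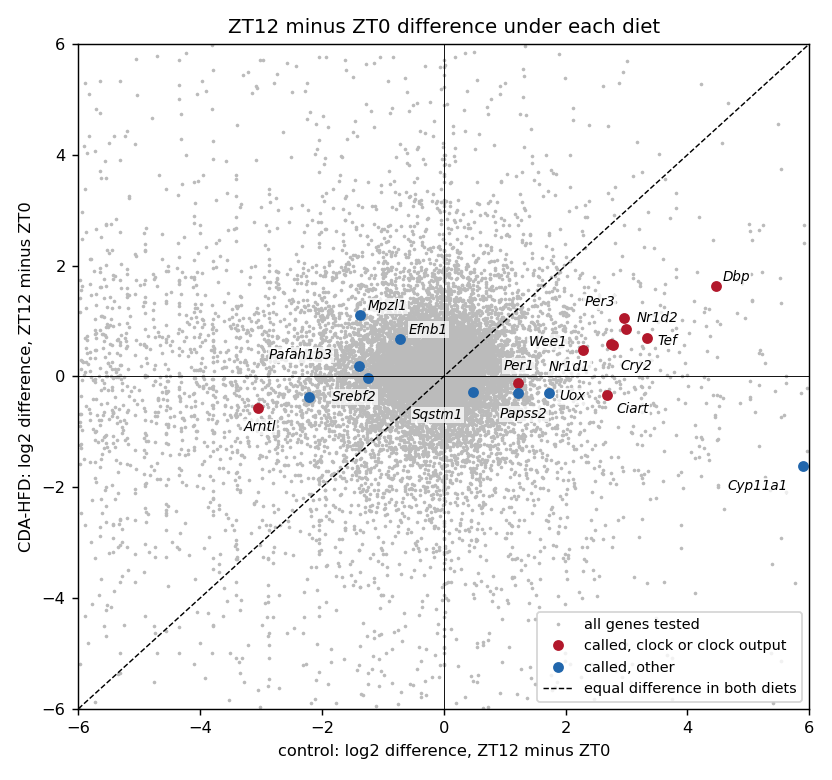
Each point is 1 tested gene, with its ZT12 minus ZT0 log2 difference in control on the x axis and under CDA-HFD on the y axis. Red points are the 10 called clock and clock output genes, blue points the other called genes, and the dashed line marks equal differences. The called points lie closer to the horizontal zero line than to the dashed line, with Dbp at 4.46 and 1.62. Axes end at 6, which leaves 292 genes undrawn, among them 1 called gene, Lce6a.

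In control, 90 genes (0.402%) differed between ZT12 and ZT0, 45 higher and 45 lower (0.201% each), and 2208 had an unadjusted p under 0.05. Under diet 6 genes did (0.0268%), 4 higher (0.0178%) and 2 lower (0.00892%), and 1558 had an unadjusted p under 0.05. Dbp, Tspan4 and Timp3 were called in both diets, higher at ZT12 in each, and the remaining 3 under diet were Iigp1, Serpina3b and Slc34a2. Serpina3b had a mean log2 CPM of only -0.60 over the 11 libraries, so its diet difference of -7.71 ± 1.28 rests on few counts. Timp3, Iigp1, Serpina3b and Slc34a2 are named here because they were called, after their values were seen. Of the 90 genes called in control, 54 (60%) had the same sign under diet, against 51.3% of all genes tested. Their median absolute difference was 1.53 in control and 0.23 under diet on the log2 scale, where all genes had 0.36 and 0.30. The 90 were chosen on the control values, so a smaller value under diet is a description and not a finding. Of the 90, 19 were called in the interaction, and for the others no difference between the diets was shown.

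Arntl encodes BMAL1, the activator of the loop, and lies on the plus strand at chr7:113207465-113314126. In control libraries it stood at 62.9, 41.7 and 63.7 CPM at ZT0 and at 5.54 and 7.91 CPM at ZT12. Under diet it stood at 27.5, 24.2 and 26.5 CPM at ZT0 and at 11.6, 25.4 and 15.9 CPM at ZT12. The control times did not overlap, whereas replicate 2 of diet ZT12 lay within the range of diet ZT0. The difference was -3.05 ± 0.33 in control and -0.56 ± 0.26 under diet, giving an interaction of 2.49 ± 0.41 (SE, adjusted p = 0.0127). Its partner Clock had an interaction of 0.35 ± 0.30 (adjusted p = 0.804), and Npas2, a paralog of Clock, one of 0.53 ± 1.14 (adjusted p = 0.949).

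Nr1d1 and Nr1d2 encode the REV-ERB repressors, and both rose in control. Nr1d1 (chr11:98767932-98775333, minus strand) stood at 50.5, 26.5 and 41.0 CPM at control ZT0 and at 271 and 253 CPM at control ZT12. Its diet libraries held 27.7, 18.5 and 23.4 CPM at ZT0 and 41.5, 38.8 and 23.7 CPM at ZT12. The diet times overlapped and the control times lay far apart, with differences of 0.58 ± 0.22 and 2.74 ± 0.24. The interaction of Nr1d1 was -2.16 ± 0.32 (adjusted p = 0.00957). Nr1d2 (chr14:18204054-18239127, minus strand) stood at 15.5, 14.2 and 13.5 CPM at control ZT0 and at 108 and 122 CPM at control ZT12. Under diet the values were 22.6, 16.5 and 20.3 CPM at ZT0 and 31.9, 41.4 and 34.1 CPM at ZT12. Here the times did not overlap in either diet, and the diet difference of 0.85 ± 0.16 did not pass the threshold (adjusted p = 0.0677). The interaction of Nr1d2 was -2.14 ± 0.24 (adjusted p = 0.000476), the smallest p of the comparison together with that of Dbp. Rora, an activator of Arntl that competes with the REV-ERBs, had an interaction of 0.15 ± 0.40 (adjusted p = 0.967). Its sign changed under some alternatives.

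Among the repressors of CLOCK and BMAL1, Per1, Per3, Cry2 and Ciart were called, all with a negative interaction. Per1 (chr11:69095217-69109960, plus strand) stood at 28, 32.0 and 23.0 CPM at control ZT0 and at 56.0 and 72.1 CPM at control ZT12. All 6 diet libraries were higher than any of these, at 105, 105 and 104 CPM at ZT0 and 97.1, 93.3 and 98.5 CPM at ZT12. Per1 thus differed between the diets at both times, by 1.92 at ZT0 and 0.59 at ZT12 on the log2 scale (adjusted p = 9e-09 and 0.0148). The difference between the times was 1.21 ± 0.17 in control and -0.12 ± 0.15 under diet, an interaction of -1.33 ± 0.23 (adjusted p = 0.019). The call ended with scaling to library size only. Per3 (chr4:151003652-151044665, minus strand) rose in control from 8.75, 5.94 and 6.19 CPM to 57.5 and 51.0 CPM. Under diet Per3 held 7.17, 11.1 and 6.03 CPM at ZT0 and 15.7, 14.2 and 20.3 CPM at ZT12, without overlap. The interaction of Per3 was -1.91 ± 0.32 (adjusted p = 0.0137).

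Cry2 (chr2:92403646-92434043, minus strand) rose in control from 8.75, 7.85 and 7.11 CPM at ZT0 to 53.1 and 55.6 CPM at ZT12. Its diet libraries began higher, at 14.6, 23.1 and 24.0 CPM, and overlapped these values at ZT12 with 35.1, 22.3 and 34.1 CPM. All 6 diet libraries of Cry2 thus lay between the control groups. The interaction was -2.21 ± 0.36 (adjusted p = 0.0127). Ciart (chr3:95878503-95882251, minus strand), which encodes the CHRONO repressor, also rose in control, from 0.994, 3.54 and 2.90 CPM at control ZT0 to 16.7 and 15.0 CPM at control ZT12. Under diet Ciart was already at 14.0, 11.9 and 20.4 CPM at ZT0, with 1 library above both of control ZT12, and held 9.35, 13.4 and 14.0 CPM at ZT12. At ZT12 the diets differed by -0.37 for Ciart (adjusted p = 0.498), and at ZT0 by 2.65 (adjusted p = 6.62e-06). Its interaction was -3.02 ± 0.50 (adjusted p = 0.0127).

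Other repressors of the loop had fitted values of the same sign but were not called. Per2 differed by 3.62 ± 0.50 in control and had an interaction of -2.53 ± 0.65 (adjusted p = 0.182). Cry1 differed by 1.20 ± 0.23 in control and 0.16 ± 0.21 under diet, with an interaction of -1.05 ± 0.32 (adjusted p = 0.295). Bhlhe41, which encodes the E-box repressor DEC2, missed the threshold narrowly at -4.44 ± 0.86 (adjusted p = 0.0501) and was called in 6 of 19 alternatives. Its control libraries held 0.688, 1.39 and 0.58 CPM at ZT0 and 11.5 and 7.12 CPM at ZT12, and its diet libraries 1.45, 2.93 and 7.27 CPM and 2.69, 1.72 and 1.21 CPM. Its relative Bhlhe40 had -1.04 ± 0.31 (adjusted p = 0.29). The kinase genes Csnk1d and Csnk1e and the gene Timeless had adjusted p between 0.783 and 0.939.

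Dbp, Tef and Hlf encode the transcription factors that read D-boxes. Dbp (chr7:45705088-45710203, plus strand) rose in control from 6.23, 3.59 and 5.66 CPM at ZT0 to 129 and 99.4 CPM at ZT12. Under diet it rose from 5.31, 3.06 and 3.59 CPM to 14.1, 10.9 and 12.1 CPM. Neither diet showed overlap between the times, and the diets overlapped at ZT0 but not at ZT12. The difference was 4.46 ± 0.26 in control and 1.62 ± 0.23 under diet (adjusted p = 4.36e-09 and 0.0158), and the interaction was -2.84 ± 0.33 (adjusted p = 0.000476). Tef (chr15:81802421-81826863, plus strand) held 6.76, 7.09 and 4.59 CPM at control ZT0 and 64.3 and 60.1 CPM at control ZT12. Its diet libraries held 7.24, 9.19 and 9.09 CPM at ZT0 and 12.6, 18.5 and 9.98 CPM at ZT12, a smaller step without overlap. The interaction of Tef was -2.65 ± 0.41 (adjusted p = 0.0103). Hlf, with at most 9.45 CPM in any of the 11 libraries, had -3.40 ± 1.00 (adjusted p = 0.278), and their antagonist Nfil3 had 0.84 ± 0.45 (adjusted p = 0.627).

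Wee1, a kinase gene of the G2 to mitosis checkpoint that is driven by E-boxes, was the third called clock output gene (chr7:110122046-110143286, plus strand). In control it rose from 9.40, 8.33 and 8.37 CPM to 49.9 and 34.8 CPM, and under diet it held 16.2, 19.1 and 16.4 CPM at ZT0 and 32.0, 19.4 and 20.5 CPM at ZT12. Both steps were without overlap, although the nearest diet libraries were 19.1 and 19.4 CPM. The interaction of Wee1 was -1.80 ± 0.33 (adjusted p = 0.0364). Tspan4, a tetraspanin gene on the clock output list, rose in both diets, as Dbp did, but was not called in the interaction. Its control libraries went from 128, 103 and 156 CPM to 444 and 399 CPM, and its diet libraries from 24.3, 15.4 and 16.6 CPM to 62.3, 40.3 and 39.8 CPM. The interaction of Tspan4 was -0.37 ± 0.31 (adjusted p = 0.801).

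Over the 19 core clock genes, 6 were called negative and 1 positive, 14 had a negative sign, and the median interaction was -1.04. Over the 19 clock output genes, 3 were called negative and none positive, and the median of -0.10 turned to 0.00148 with scaling to library size only and ran from -0.21 (without replicate 2 of control ZT0) to -0.03 (without replicate 3) with 1 library left out. All tested genes had a median of 0.10 and 43.5% negative signs. In control 17 of these 38 genes differed between the times, and all 17 differences were smaller in size under diet. The same held for all 90 genes called in control, which were chosen on the control values, so this is a description and nothing particular to the clock. Of the 17, 10 were called in the interaction, and the other 7 were Per2, Cry1, Bhlhe41, Hlf, Tspan4, Tsc22d3 and Leo1.

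**Figure D2:**
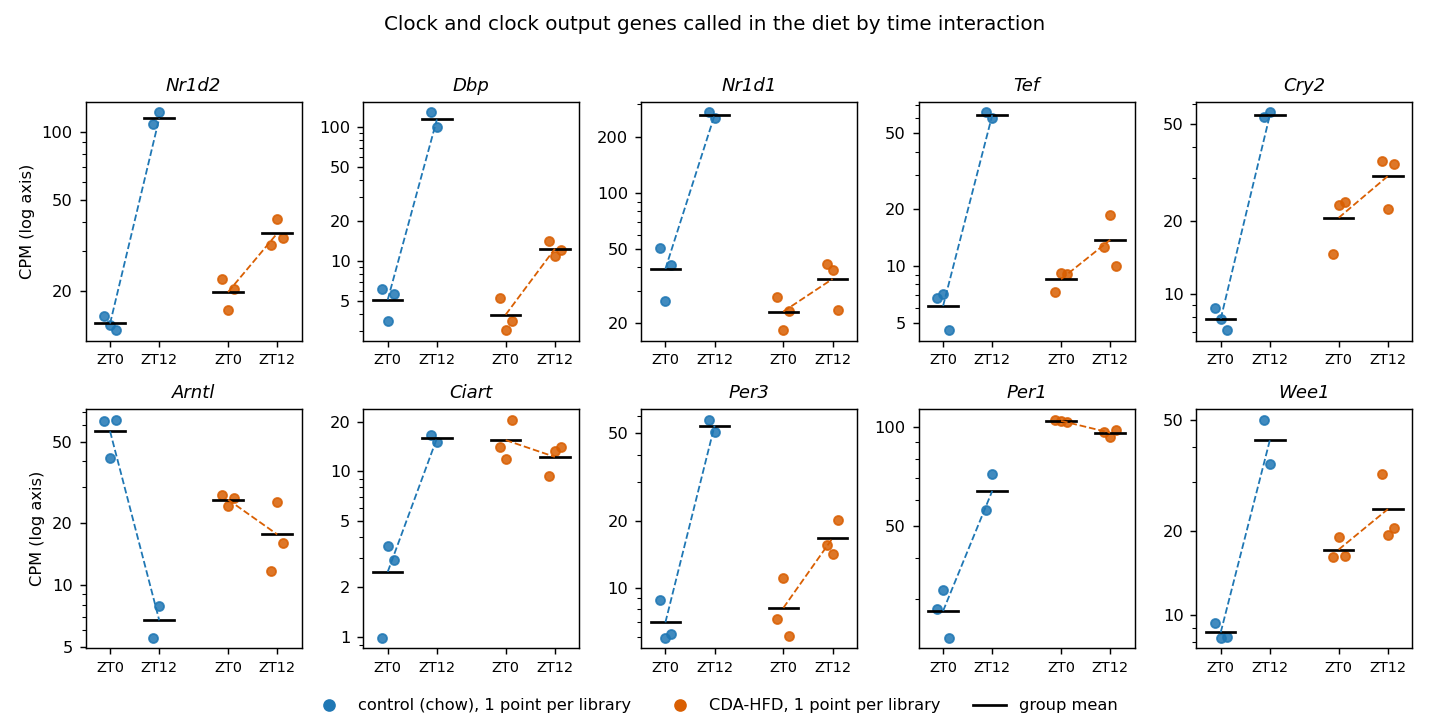
Each panel shows 1 called clock or clock output gene in CPM on a log axis, with 1 point per library, blue for control (3 libraries at ZT0, 2 at ZT12) and orange for CDA-HFD (3 at each time). Black bars are group means and dashed lines join the times of a diet. Control points are separated between ZT0 and ZT12 in all 10 panels, as for Dbp at 3.59 to 6.23 CPM and 99.4 to 129 CPM, and the orange lines are flatter.

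Since ZT0 and ZT12 are only 2 of the 4 sampled times, the same 10 genes were also described at ZT6 and ZT18, without a test. The ratio of the highest to the lowest group mean was smaller under diet for all 10, which were chosen by the difference between ZT0 and ZT12. For 7 of them those were also the times of the highest and lowest control means, so the smaller ratio is a description that the choice of genes largely fixes. Of the other 28 clock and clock output genes, 22 had a smaller ratio under diet, and Csnk1e, Usp2, Nampt, Tns2, Cirbp and Alas1 did not. The ratio was not computed for all tested genes, so there is no share to set beside these counts. Control means at ZT6 and ZT12 rest on 2 libraries each, and some are low, as for Npas2 with 0.301 CPM at ZT6. In control and under diet the ratio was 22.1 and 3.10 for Dbp, 13.6 and 2.66 for Nr1d1, 10.1 and 1.61 for Tef, and 8.34 and 1.66 for Arntl. For 8 of the 10 the highest group mean fell at the same time in both diets. The exceptions were Arntl, highest at ZT0 in control and at ZT18 under diet, and Ciart, highest at ZT12 in control and at ZT0 under diet. Several diet means lay close together, with a ratio of 1.14 for Per1, 1.39 for Wee1 and 1.60 for Cry2. For such genes the time of the highest diet mean says little. Nr1d1 was highest at ZT6 in both diets, at 403 CPM in control and 47.1 CPM under diet, so its ZT12 values do not show its highest level.

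**Figure D3:**
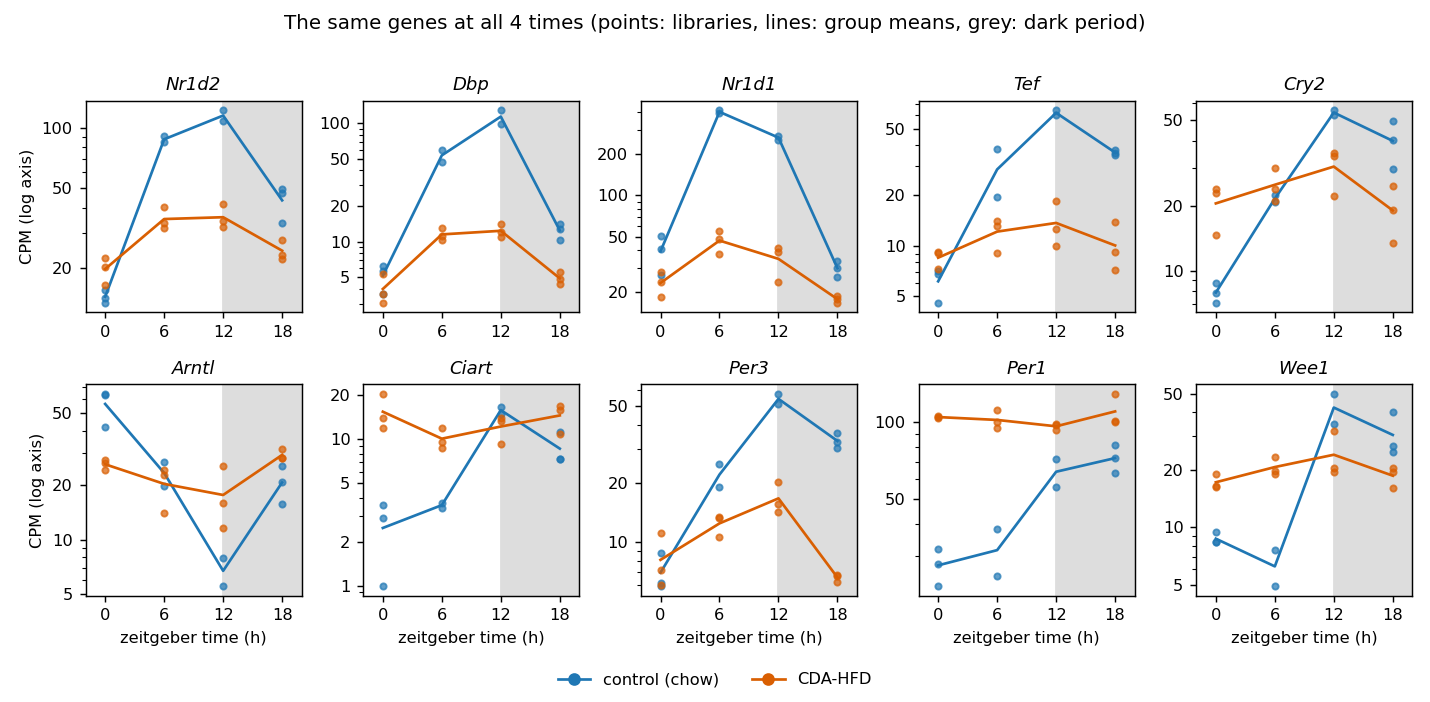
CPM on a log axis against zeitgeber time in hours for the same 10 genes, with points for libraries, lines through group means, and grey for the dark period. Control groups hold 3, 2, 2 and 3 libraries at ZT0, 6, 12 and 18 and diet groups 3 each. The orange lines span less than the blue ones, as for Nr1d1 with 403 CPM in control and 47.1 CPM under diet at ZT6.

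Sterol genes formed the other listed group with more than 1 call. Srebf2, which encodes the transcription factor SREBP2 of cholesterol synthesis and uptake, lies at chr15:82147181-82205379 on the plus strand. It fell in control from 55.8, 70.6 and 63.1 CPM at ZT0 to 23.3 and 30.2 CPM at ZT12. Under diet it held 65.4, 64.3 and 65.7 CPM at ZT0 and 65.2, 71.9 and 55.2 CPM at ZT12. The diets overlapped at ZT0 and were apart at ZT12, where the diet was higher by 1.26 on the log2 scale (adjusted p = 9.24e-07). The interaction of Srebf2 was 1.21 ± 0.19 (adjusted p = 0.0103), from -1.24 ± 0.14 in control and -0.02 ± 0.12 under diet.

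Of the 22 genes on the cholesterol list, 2 were called positive and none negative (1 without replicate 2 of control ZT12, none on the 11 libraries alone), and 21 had a positive sign, against 56.5% of all genes. The median interaction was 0.70, against 0.10 for all genes. All 22 had a negative fitted difference in control, 4 of them called, Srebf2, Fdft1 and Sqle among them, and 14 had one under diet, none called. Among all genes 54.2% were negative in control and 47.3% under diet. Some lists without a call had interaction signs about as one-sided as the cholesterol list. Positive signs were held by 19 of 20 interferon-stimulated genes, 19 of 20 macrophage markers and 11 of 12 dendritic cell markers. Fdft1, which encodes squalene synthase, fell in control from 27.9, 26.7 and 29.8 CPM to 15.8 and 13.3 CPM. Under diet it held 35.9, 34.7 and 33.7 CPM at ZT0 and 39.9, 37.4 and 38.7 CPM at ZT12, and its interaction of 1.10 ± 0.22 was not called (adjusted p = 0.0574). Sqle, squalene epoxidase, had 1.53 ± 0.42 (adjusted p = 0.238). Mvd was the member without a positive sign (-0.0090 ± 0.26) and was chosen for mention after its values were seen.

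Mpzl1 and Efnb1 were lower under diet than in control at both times, and their fitted differences between the times had opposite signs in the 2 diets. Mpzl1 encodes a cell surface glycoprotein and lies at chr1:165592240-165634538 on the minus strand. In control it fell from 93.8, 76.6 and 73.9 CPM at ZT0 to 34.2 and 28.6 CPM at ZT12, and under diet it went from 8.19, 6.86 and 8.61 CPM to 22.2, 15.0 and 13.6 CPM. The interaction of Mpzl1 was 2.48 ± 0.32 (adjusted p = 0.00175), with -1.38 ± 0.24 in control and 1.10 ± 0.21 under diet (adjusted p = 0.0101 and 0.0798). Efnb1, the gene of the membrane ligand ephrin-B1 (chrX:99136130-99148991, plus strand), held 171, 136 and 144 CPM and then 100.3 and 81.4 CPM in control, and 12.9, 10.3 and 14.4 CPM and then 23.8, 17.6 and 18.6 CPM under diet. Its differences of -0.72 ± 0.17 and 0.68 ± 0.15 were not called (adjusted p = 0.0668 and 0.138), but their difference of 1.40 ± 0.23 was (adjusted p = 0.0127). The summed endothelial markers were likewise lower under diet, at 1834 to 2301 CPM at ZT0 and 2017 to 2939 CPM at ZT12 against 27881 to 50238 and 44583 to 47652 CPM in control. None of the 20 endothelial markers was called in the interaction, and their median was 0.27, with 0.10 without replicate 3 and 0.51 without replicate 2 of control ZT0. Their part in these results was not tested.

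Uox, Papss2 and Pafah1b3 are enzyme genes with the larger step in control. Uox, urate oxidase of hepatocyte peroxisomes (chr3:146570426-146632305, plus strand), rose in control from 11.8, 12.4 and 15.0 CPM to 40.7 and 45.5 CPM. Under diet it held 25.6, 19.9 and 23.1 CPM at ZT0 and 12.3, 24.6 and 18.7 CPM at ZT12, with overlap, and the interaction was -2.03 ± 0.33 (adjusted p = 0.0127). The 20 hepatocyte markers did not separate the control times, with summed levels of 594 to 620 CPM at ZT0 and 521 to 713 CPM at ZT12, and none was called in the interaction. Papss2, which makes the sulfate donor for sulfation (chr19:32595790-32667187, plus strand), rose in control from 9.94, 10.5 and 7.54 CPM to 25.6 and 17.9 CPM. Its diet libraries lay at 29.6, 32.9 and 23.7 CPM and at 23.9, 21 and 25.2 CPM, and the interaction was -1.52 ± 0.26 (adjusted p = 0.019). Pafah1b3, a catalytic subunit gene of platelet-activating factor acetylhydrolase (chr7:25295049-25297986, minus strand), moved the other way. It fell in control from 18.2, 28.8 and 27.8 CPM to 11.4 and 7.71 CPM, while all 6 diet libraries lay between 51.2 and 64.5 CPM. The interaction of Pafah1b3 was 1.57 ± 0.29 (adjusted p = 0.0321).

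The last 3 called genes need their own limits. Sqstm1, the autophagy receptor p62 (chr11:50199366-50210827, minus strand), had the smallest change, -0.76 ± 0.14 (adjusted p = 0.0369). It held 829, 648 and 823 CPM and then 1115 and 1023 CPM in control, and 904, 794 and 795 CPM and then 714, 665 and 678 CPM under diet, without overlap between times in either. Cyp11a1, the side-chain cleavage enzyme that begins steroid synthesis (chr9:58006411-58027023, plus strand), held 0.153, 0.766 and 0.725 CPM at control ZT0 but 0.727 and 62.4 CPM at control ZT12. Under diet it averaged 16.5 CPM at ZT0 and 5.37 CPM at ZT12, without overlap. At ZT0 the diet was higher by 4.95 on the log2 scale (adjusted p = 0.00114). The called interaction of Cyp11a1, -7.52 ± 1.40 (adjusted p = 0.0369), rests on the 1 control library at 62.4 CPM, without which it was -2.13. The call also ended without any 1 of the diet libraries. In the same library, replicate 2 of control ZT12, the 10 adrenocortical markers summed to 423 CPM, against 17.4 to 44.1 CPM in the other 10 libraries. Hsd3b1 averaged 46.0 CPM at control ZT12 and was at 0 in control ZT0, and Star averaged 82.2 CPM against 4.74 CPM. Under diet Hsd3b1 averaged 0.0478 CPM at ZT0 and 1.81 CPM at ZT12, and Star 2.86 and 5.71 CPM. The part of these markers in the result was not tested. At ZT18, outside this comparison, Cyp11a1 stood at 72.6, 163 and 138 CPM in the control libraries. Lce6a, a late cornified envelope gene (chr3:92620081-92621660, minus strand), had at most 36 counts in any of the 11 libraries and 0 in both control ZT12 libraries. It held 1.38, 1.63 and 1.21 CPM at control ZT0 and 0.575 to 1.51 CPM under diet, and its fitted interaction of 8.67 (adjusted p = 0.0127) depends on how 0 counts are treated and is no bound. Lce6a and Sqstm1 fall outside the rule for named genes and are given because they were called, after their values were seen.

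**Figure D4:**
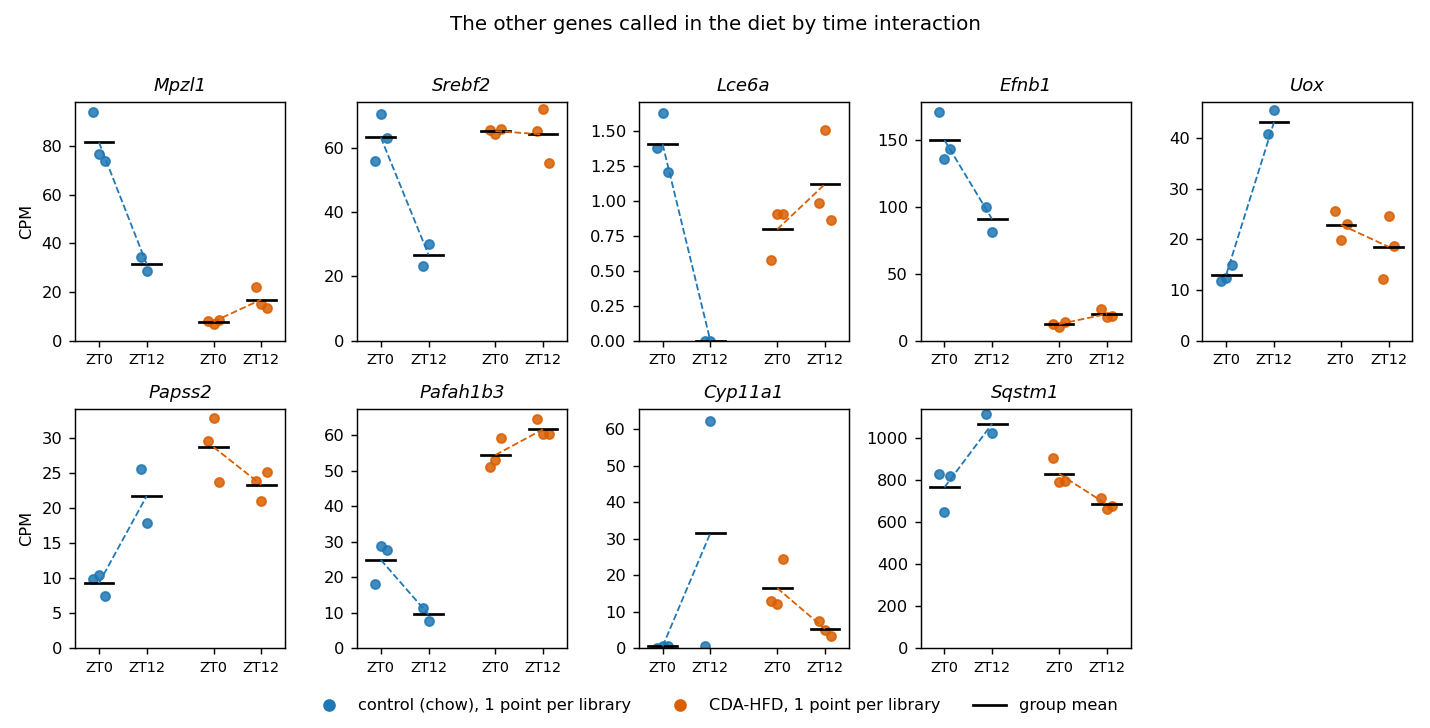
Each panel shows 1 called gene outside the clock lists in CPM on a linear axis from 0, with 1 point per library, blue for control (3 libraries at ZT0, 2 at ZT12) and orange for CDA-HFD (3 at each time). Black bars are group means and dashed lines join the times of a diet. The control times are apart in every panel but Cyp11a1, where 1 library at 62.4 CPM sets the ZT12 mean.

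Across the 20 called genes, the control times did not overlap in 19 and overlapped for Cyp11a1. The diet times did not overlap in 12 and overlapped in 8. At ZT0 the diets overlapped for 5 genes and at ZT12 for 2, Papss2 and Cyp11a1. At ZT12 control was above the diet for 12 genes and below it for 6. These counts describe genes that were chosen for the difference. The share of all tested genes without such overlap was not counted, so the counts have no baseline.

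The remaining lists held few or no calls. Of the 20 glucocorticoid-induced genes 1 was called, Per1, which is also on the clock list. The metallothionein genes Mt1 and Mt2 on that list differed between the times in control (1.27 ± 0.22 and 1.41 ± 0.27, adjusted p = 0.01 and 0.0193), with interactions of -1.39 ± 0.30 and -1.64 ± 0.37 (adjusted p = 0.0746 and 0.0995). Of the 10 adrenocortical markers 1 was called, Cyp11a1. No member was called among 20 heat shock genes, 20 chaperone genes of the endoplasmic reticulum, 24 immediate early genes, 18 fatty acid synthesis genes or 30 collagen and matrix genes. None was called among 24 chemokine and cytokine genes, 20 interferon-stimulated genes or 24 cell cycle genes. Other settings did call some. Without a filter on low counts, where 586 genes were called in all, 6 immediate early genes were called negative and 1 positive, and 1 to 5 members of each of the other 7 lists were called. Without replicate 2 of control ZT0, 5 immediate early genes were called negative, and without replicate 2 of control ZT12, 2 cell cycle genes positive. Median interactions ranged from -0.42 for immediate early genes to 0.55 for cell cycle genes. The immediate early median was -0.74 without replicate 2 of control ZT0 and -0.15 without replicate 3. The cell cycle median was 0.28 without replicate 1 of control ZT12 and 1.04 without replicate 2. The medians of heat shock, chaperone and matrix genes changed sign with at least 1 library left out, and that of the chaperones also with scaling to library size only. Ccnb2, the cyclin B2 gene, came nearest to a call among them, at 2.03 ± 0.39 (adjusted p = 0.0501).

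No stellate, endothelial, macrophage, neutrophil, dendritic, T and NK, B and plasma, hepatocyte, cholangiocyte or erythroid marker was called, and neither was a mitochondrial or ribosomal protein gene. The marker calls depended on the filter and the tool. Without a filter on low counts, 586 of 46151 genes were called in all, 434 positive and 152 negative. In that setting 13 of the 20 macrophage and 11 of the 12 cholangiocyte markers were called positive. So were 9 of the 12 dendritic and 6 of the 18 T and NK cell markers. Calls were negative there for 4 erythroid, 3 hepatocyte (2 positive), 2 B and plasma cell (1 positive) and 1 T and NK cell marker. DESeq2 called 180 of 22409 genes, 121 positive and 59 negative. Among them were 4 cholangiocyte, 2 dendritic, 1 macrophage, 1 endothelial and 1 T and NK cell marker, all positive. Without replicate 2 of control ZT0, 3 T and NK cell markers were called negative, and without replicate 1 of control ZT12, 3 dendritic markers positive. Median interactions included 0.13 for stellate, 0.48 for neutrophil, -0.01 for T and NK cell, 0.27 for B and plasma cell, -0.67 for hepatocyte, -0.96 for erythroid and -0.11 for ribosomal protein genes. Several of these medians rest on single libraries. Without replicate 1 of control ZT12 the neutrophil median was 3.05, the hepatocyte median -0.18 and the B and plasma cell median 0.74. Without replicate 2 of control ZT12 the B and plasma cell median was 0.0264, and without replicate 2 of control ZT0 the T and NK cell median was -0.78 and the ribosomal protein median -0.26. The stellate median was -0.16 without replicate 1 of control ZT0 or of diet ZT12. The 12 dendritic cell markers had a median interaction of 0.92 (0.47 without replicate 2 of control ZT12), and Itgax and Ccr9 fell in control (-1.40 and -1.44, adjusted p = 0.0131 and 0.0378). Their summed level was 1767 to 2562 CPM at control ZT0, 907 and 1585 CPM at control ZT12, and 7211 to 8328 CPM in the 6 diet libraries. The 20 macrophage and Kupffer cell markers summed to 9690 CPM in replicate 1 of diet ZT12, against 3488 to 4630 CPM in the other 5 diet libraries. In that library the 12 cholangiocyte markers summed to 5285 CPM, against 1418 to 2308 CPM in those 5. Spp1, the osteopontin gene, is on both lists and held 4123 CPM there. Without Spp1 the sums were 5567 against 2379 to 2900 CPM for macrophage markers and 1161 against 371 to 485 CPM for cholangiocyte markers. The median interaction was 1.00 for the macrophage list and 1.74 for the cholangiocyte list, with all 12 cholangiocyte markers positive, and without that library the medians were 0.40 and 1.12. Beside these, 8 mitochondrial transcripts summed to 9344 to 11318 CPM in control and 14594 to 28377 CPM under diet. Their part in the interaction was not tested.

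Some called genes share exon sequence with a gene on the other strand, and the sources used here do not give the strand setting of the counting, so reads there cannot be assigned with certainty. By GENCODE M21 (GRCm38), 18% of the exon bases of Dbp lie within exons of Sphk2, 8.5% of those of Nr1d1 within Thra and 17.3% of those of Sqstm1 within Mrnip. The interactions of these partners were 0.33, 0.72 and 0.52 (adjusted p = 0.807, 0.762 and 0.858), and none was called. The part of the shared bases in the results was not tested. Cry2, Tef and Arntl overlap noncoding genes over 4.7%, 2.5% and 0.4% of their exon bases.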

How the data were processed

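RNA-seq read counts of 22 libraries were used, and 11 of them enter the comparison. The submitters' processing notes list STAR 2.7.9a, HTSeq, DESeq2 and the build GRCm38 (mm10), and per the labels' protocols RNA was taken with a Promega kit. For annotation, strand setting and batches the entry is: not given in the sources used here. The deposited table holds whole-number counts per gene symbol. A second deposited table of normalised signal equals these counts divided by 1 size factor per library and was not used. Groups come from the sample titles.

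Counts were tested with edgeR 4.0.16 (R 4.3.3). The filter was filterByExpr, and libraries were scaled by TMM and fitted with glmQLFit on 1 model of 8 diet by time groups, so that the group with 2 libraries shares the spread of the others (14 residual degrees of freedom). The contrast was (diet ZT12 minus ZT0) minus (control ZT12 minus ZT0), with Benjamini-Hochberg adjustment over 22409 genes and a threshold of 0.05. The script was tested on simulated data. Named genes are the called genes in each direction with the smallest p (up to 12 each, mean log2 CPM of at least 2), every clock and clock output gene, and up to 4 members of each of the other lists with the smallest p. The members and the 25 lists were chosen with earlier results of these data known. Some genes, 1 of the 20 called genes among them, are not reported here.

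Alternatives were DESeq2's size factors (RLE), library size only, no filter, a stricter filter (mean CPM 5 or more), DESeq2 1.42.0, limma 3.58.1 with voom quality weights, the 11 libraries alone, the replicate number as a block, and each of the 11 libraries left out in turn. Leaving out replicate 2 of control ZT0 and of control ZT12 together was chosen after seeing the data. Of the symbols, 53292 of 55367 were found in GENCODE M21 and coordinates are 1-based.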

Additional observations from a re-analysis of the deposited data

Results flagged for a closer look

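For the genes below the ZT12 minus ZT0 difference was itself tested to differ between control and diet (edgeR's quasi-likelihood test, adjusted p under 0.05), and each value is the log2 interaction. Among clock and clock output genes it was -2.14 for Nr1d2, -2.84 for Dbp, -2.16 for Nr1d1, -2.65 for Tef, -2.21 for Cry2, 2.49 for Arntl, -3.02 for Ciart, -1.91 for Per3, -1.33 for Per1 and -1.80 for Wee1. Among the others it was 2.48 for Mpzl1, 1.21 for Srebf2, 1.40 for Efnb1, -2.03 for Uox, -1.52 for Papss2, 1.57 for Pafah1b3 and -0.76 for Sqstm1. The fitted values of -7.52 for Cyp11a1 and 8.67 for Lce6a rest on 1 library and on 0 counts, respectively.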

How the results depend on the processing

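The count of genes called in the interaction was 20, and those called between the times in control and under diet were 90 and 6. With scaling to library size only the 3 counts were 31, 93 and 45. Without a filter on low counts they were 586, 738 and 491, with a mean CPM of at least 5 they were 46, 118 and 10, with DESeq2 180, 428 and 105, and with limma 38, 160 and 4. On the 11 libraries alone they were 5, 36 and 0. With DESeq2's size factors in edgeR they were 22, 85 and 8. Leaving out 1 library at a time gave 13 to 86, 42 to 174 and 0 to 34 calls, and leaving out replicate 2 of control ZT0 and of control ZT12 together gave 29, 55 and 18. Of 399 pairs of a called gene and an alternative, 321 stayed called, and all 20 genes kept their sign in each.

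With the replicate number as a block the counts were 34, 70 and 6. Over 15 same-numbered pairs the correlation of deviations from the group means ran from -0.143 to 0.0752, and 2 of 11 libraries correlated best with their own number. These values gave no sign that the numbers pair the libraries. With only 2 or 3 libraries per group they cannot exclude a pairing.

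Sign changes occurred in genes that were not called. With library size only, Cirbp turned to 0.00148 and Usp2 to 0.11, and with the replicate block Usp2 turned to 0.0303. Por turned to -0.0168 with DESeq2's size factors, -0.0123 without a filter and -0.0168 with DESeq2, and Rora to -0.31 with limma. With both control libraries left out, Cyp21a1 was 4.66, Por -0.15, Rora -0.15 and S100a8 1.14. Over the fits that leave out 1 library, the interaction ran from -0.22 to 0.17 for Cirbp, -10.25 to 4.23 for Cyp21a1, -0.30 to 3.05 for Npas2, -0.22 to 0.21 for Por, -0.40 to 0.39 for Rora, -3.86 to 1.14 for S100a8, -0.13 to 0.56 for Timeless, -0.0119 to 0.35 for Tns2 and -0.19 to 0.14 for Usp2. The cause of these changes was not tested. With 2 libraries at control ZT12 and 20775403 to 41665623 counts per library, genes of few counts, such as Lce6a and Hlf, have wide errors, and a gene that was not called is not shown to be alike in both diets.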
